A study of Mus musculus with 6 samples.

Results

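The serine and proline synthesis enzymes and the amino acid transporters examined here are 10 genes of the 30236 listed in an RNA-seq table of mouse liver tumors. They were chosen by symbol from knowledge of the pathways: the serine enzymes Phgdh, Psat1 and Psph, the proline enzymes Aldh18a1 and Pycr1, and the transporters Slc7a11, Slc7a5, Slc3a2, Slc7a1 and Slc38a2. All 10 were found, each in 1 row, and all 10 were among the 22677 genes whose mean over the libraries lay above the lowest 25%. The libraries were made from tumors of male C57BL/6 littermates, 3 libraries of WT tumors and 3 of tumors with a homozygous germline loss of Top1mt (labelled Top1mt -/- and called KO here). The labels do not give the number of animals behind them. Top1mt encodes the mitochondrial type IB topoisomerase, which relaxes mitochondrial DNA. Both genotypes received diethylnitrosamine, a liver carcinogen, on postnatal day 14, and carbon tetrachloride, which injures the liver repeatedly, for 14 weeks from week 8 of age. Tumors were taken at week 22. Bulk tumor tissue was sequenced, so fewer cells of a type and less RNA per cell cannot be told apart in any value below. The values, on a log2 scale, were normalized between libraries by the authors. The transform behind them is not named, weakly expressed genes are drawn together on this scale, and the depth of each library is unknown.

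Serine is made from a glycolytic intermediate in a short chain of reactions. PHGDH oxidizes phosphoglycerate, PSAT1 transfers an amino group from glutamate, and PSPH removes the phosphate. Proline is made from glutamate, which ALDH18A1 converts to pyrroline carboxylate and PYCR1, in mitochondria, reduces to proline. The transporters bring in what a cell does not make. SLC7A5 carries leucine and other large neutral amino acids, SLC7A11 exchanges glutamate for cystine, the precursor of cysteine in glutathione, and both light chains need the heavy chain SLC3A2 to reach the plasma membrane. SLC7A1 carries arginine and lysine, and SLC38A2 carries small neutral amino acids together with sodium. Most of these genes are known as targets of ATF4, the transcription factor that is translated when amino acids are short or mitochondria are stressed, and Slc7a11 is also a target of NRF2, which answers oxidative stress. The comparison of KO with WT asks whether tumors without Top1mt carried different transcript levels of these genes.

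The targeted gene was read first. Top1mt stood at 7.71, 5.99 and 8.01 for WT replicates 1, 2 and 3 as labelled and at 5.58, 6.41 and 6.32 in those labelled KO, so the library labelled WT replicate 2 lay below 2 of the KO libraries, against its label. Genotypes below are those of the labels. In the library labelled KO replicate 1 a single transcript, Gm42418, took 17.7% of the values summed on the linear scale, against at most 0.387% elsewhere. Hepatocyte markers were high in every library, with a summed log2 level of 20.8 to 21.5 in WT and 21.1 to 21.6 in KO, and T and NK cell markers were low, at 5.82 to 6.49 and 5.84 to 6.21. The summed levels of all 8 cell type lists overlapped between the genotypes, as did those of the proliferation, pericentral and periportal lists. Single markers did not all lie alike. In KO 5 of 5 neutrophil markers were below WT (median log2 fold change -1.07, 2 with an unadjusted p under 0.05 by limma). So were 4 of 6 bile duct markers (median -0.94, 2 with an unadjusted p under 0.05) and 6 of 7 stellate and fibroblast markers (median -0.43, 1 with an unadjusted p under 0.05). Above WT were 5 of 6 endothelial markers (median 0.10, 1 with an unadjusted p under 0.05) and 5 of 6 proliferation markers (median 0.23, 0 with an unadjusted p under 0.05). Of 5 B cell markers 3 were below WT, 1 of them with an unadjusted p under 0.05. Over all genes tested 47.7% lay above WT and 4.34% had an unadjusted p under 0.05. An adjusted p under 0.05 was reached by 0 markers, and their part in the members' levels was not tested.

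No member separated the genotypes. By limma, 0 of the 10 members had an adjusted p under 0.05 (0% of all genes tested), 0 had an unadjusted p under 0.05 (4.34% of all genes tested), and in 0 of them did the WT and KO groups stay apart (8.28% of all genes tested). The log2 fold change of KO against WT was above 0 in 8 of the 10 members, against 47.7% of all genes tested. Its median over the members was 0.17, beside -0.015 over all genes tested. This lean rested on 1 tumor: without KO replicate 3, 4 of the 10 members lay above 0 and the median was -0.014. The members' spread within the genotypes was not wide in all cases. It was larger than that of 24.8% of all genes tested for Pycr1, the lowest share, and of 99.7% for Slc7a11, the highest. The sections that follow give the members tumor by tumor. Fits with 1 library left out are quoted there for some libraries only. Smaller groups stay apart more easily, so groups that do not overlap in such a fit are no separate evidence of a difference.

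**Figure D1:**
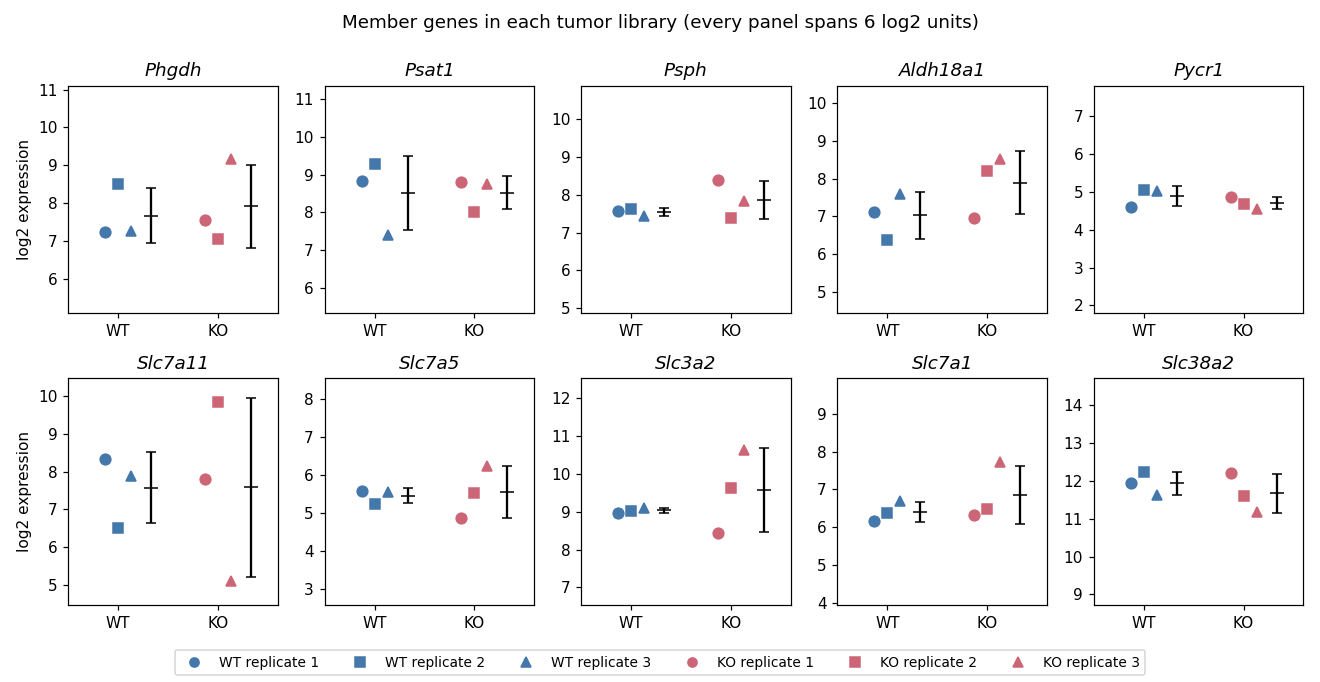
Log2 expression of each member gene (y axis, every panel spanning the same number of log2 units) in the WT and KO libraries (x axis); each symbol is 1 library, and the bar beside it is the group mean with its SD (n = 3). The KO libraries of Slc7a11 run from 5.12 to 9.82, while the WT libraries of Slc3a2 lie between 8.97 and 9.11.

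Of the serine enzymes, Phgdh, the entry step of the pathway, was at 7.25, 8.51 and 7.26 in WT replicates 1, 2 and 3 and at 7.56, 7.06 and 9.16 in KO replicates 1, 2 and 3. KO replicate 3 was the highest library and KO replicate 2 the lowest, 4.29-fold apart, so the KO group enclosed the WT group. The means were 7.67 ± 0.72 for WT and 7.92 ± 1.10 for KO (SD, n = 3 each), a log2 fold change of 0.25 with a 95% interval from -1.04 to 1.54 (adjusted p = 0.999 by limma). Without KO replicate 3 it was -0.36. Psat1, the aminotransferase, was at 8.82, 9.29 and 7.41 in WT and at 8.79, 8.02 and 8.76 in KO. Its widest gap lay inside the WT group, between replicates 2 and 3. The group means were nearly equal, 8.51 ± 0.98 and 8.53 ± 0.44 (SD, n = 3 each), yet the 95% interval of the log2 fold change, from -1.04 to 1.08, still held a change of 2-fold in either direction. Without WT replicate 3 the difference was -0.53 and the groups did not overlap.
Psph, the phosphatase of the last step, was the steadiest serine enzyme, at 7.56, 7.63 and 7.43 in WT and at 8.38, 7.38 and 7.84 in KO. KO replicates 1 and 3 lay above all WT libraries and KO replicate 2 just below them. KO exceeded WT by 0.32 in log2, with an SE of 0.26 (adjusted p = 0.999 by limma), and by 0.57 without KO replicate 2, when the groups no longer overlapped and the unadjusted p was 0.041 by limma. Psph overlaps Cct6a, an abundant gene on the opposite strand with a mean log2 value of 10.2. The libraries were stranded, but whether reads were counted by strand is not given in the sources used here, so reads of the pair may be mixed. Among the serine enzymes, KO replicate 3 was highest for Phgdh, KO replicate 1 for Psph and WT replicate 2 for Psat1. KO replicate 3 lay above the gene's mean over the 6 libraries for all 3 of them, by 1.36 for Phgdh, 0.25 for Psat1 and 0.13 for Psph.

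Aldh18a1, which commits glutamate to proline, had the largest genotype difference of the 10 members. It was at 7.11, 6.38 and 7.60 in WT and at 6.96, 8.20 and 8.53 in KO. KO replicates 2 and 3 lay above all WT libraries, and KO replicate 1 lay between WT replicates 1 and 2. The means were 7.03 ± 0.61 for WT and 7.90 ± 0.83 for KO (SD, n = 3 each), a log2 fold change of 0.86 with a 95% interval from -0.18 to 1.91 (limma's unadjusted p = 0.092 and adjusted p = 0.999). Without KO replicate 1 it was 1.33, the groups did not overlap, and limma's unadjusted p was 0.0081 (adjusted p = 0.600). Pycr1, a reductase of the last step but not the only Pycr gene in these tumors, did not follow it. Pycr1 was at 4.59, 5.06 and 5.02 in WT and at 4.87, 4.69 and 4.55 in KO, the narrowest spread of all members, with a log2 fold change of -0.19 (95% interval -0.98 to 0.60, adjusted p = 0.999 by limma). Without WT replicate 1 the Pycr1 groups did not overlap. The library highest for Aldh18a1, KO replicate 3, was the lowest for Pycr1.
The start-site regions of both genes are shown because they differ in the motifs they hold. They are RefSeq sequences of GRCm38.p6, 300 bases spanning the start site, on the minus strand. The 8-letter ATF4-C/EBP composite element TGATGNAA, searched on both strands, is in capitals for Pycr1 (chr11:120643699-120643998), where it lies at -103 to -96, and the E-box CACGTG, which MYC and the clock factors recognize, is in capitals for Aldh18a1 (chr19:40588414-40588713), where it lies at -59 to -54.
Pycr1: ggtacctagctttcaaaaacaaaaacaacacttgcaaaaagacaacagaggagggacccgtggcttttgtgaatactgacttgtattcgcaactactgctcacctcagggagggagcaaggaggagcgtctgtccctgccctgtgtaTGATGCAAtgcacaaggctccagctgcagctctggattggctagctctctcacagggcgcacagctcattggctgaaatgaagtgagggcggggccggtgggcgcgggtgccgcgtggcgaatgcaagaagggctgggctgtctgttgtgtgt
Aldh18a1: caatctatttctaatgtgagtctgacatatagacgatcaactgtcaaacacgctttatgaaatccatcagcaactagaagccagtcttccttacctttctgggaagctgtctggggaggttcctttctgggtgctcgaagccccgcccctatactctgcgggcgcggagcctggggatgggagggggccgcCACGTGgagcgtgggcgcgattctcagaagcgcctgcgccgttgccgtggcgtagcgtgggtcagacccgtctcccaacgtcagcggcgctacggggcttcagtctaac
The composite element is in 3.97% of all 32851 RefSeq promoter windows of this length and the E-box in 7.15%. A match is a description of the letters and not a site of binding.

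Slc7a11, the cystine and glutamate exchanger, varied most. It was at 8.33, 6.52 and 7.89 in WT and at 7.81, 9.82 and 5.12 in KO. The highest and the lowest of the 6 libraries were both KO tumors, replicates 2 and 3, which stood 26.1-fold apart. Its spread within the genotypes (SD 1.80 on the log2 scale) was larger than that of 99.7% of all genes tested. The group means were 7.58 ± 0.95 for WT and 7.59 ± 2.36 for KO (SD, n = 3 each). The log2 fold change of 0.0076 thus had a 95% interval from -2.43 to 2.45 (adjusted p = 0.999 by limma), and it moved to 1.24 without KO replicate 3 and to -1.11 without KO replicate 2, so the data set no useful bound on a genotype difference for this gene.
The Slc7a11 start-site region (RefSeq, GRCm38.p6, chr3:50443564-50443863, minus strand) is printed because it holds 2 copies of the composite element facing each other, at -66 to -59 and at -47 to -40, given in capitals.
Slc7a11: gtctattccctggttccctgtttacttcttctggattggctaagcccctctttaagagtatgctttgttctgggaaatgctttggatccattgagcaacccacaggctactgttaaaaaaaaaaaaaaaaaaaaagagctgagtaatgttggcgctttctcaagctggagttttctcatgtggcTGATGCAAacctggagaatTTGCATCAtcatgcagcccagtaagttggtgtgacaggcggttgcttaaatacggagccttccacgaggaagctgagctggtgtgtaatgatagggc
The 9 members with a window in the RefSeq set had 11 windows together. Members are counted by gene and the shares by window, so the 2 cannot be compared directly. Of these members, Slc7a11 and Pycr1 held the composite element. The core of the antioxidant response element, TGACNNNGC on either strand, was in the windows of Phgdh, Psph, Slc7a1 and Slc38a2 and in 12.4% of all windows. It was not in the window of Slc7a11, which says only that these letters are not in these bases.

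Slc3a2, the heavy chain, showed the sharpest contrast in spread. It was at 8.97, 9.02 and 9.11 in WT and at 8.42, 9.63 and 10.63 in KO. The WT tumors agreed within 0.14 on the log2 scale, and the KO tumors lay on both sides of them, 4.62-fold apart. The means were 9.03 ± 0.07 and 9.56 ± 1.10 (SD, n = 3 each), a log2 fold change of 0.53 (95% interval -0.55 to 1.62, adjusted p = 0.999 by limma). It was 1.10 without KO replicate 1 (limma's unadjusted p = 0.0064, adjusted p = 0.591), when the groups did not overlap, and -0.0011 without KO replicate 3. Slc7a5, the leucine carrier that pairs with it, was at 5.58, 5.23 and 5.56 in WT and at 4.88, 5.54 and 6.25 in KO. It had the same order among the KO tumors as Slc3a2, with KO replicate 1 lowest and KO replicate 3 highest of all 6 libraries. Its log2 fold change was 0.10 (95% interval -0.81 to 1.01, adjusted p = 0.999 by limma).
The log2 difference of light chain minus heavy chain was taken within each library. The exact test given with it asks whether its mean differed between the genotypes, and not whether the pair moved together. For Slc7a5 minus Slc3a2 the difference was -3.57 ± 0.20 for WT and -4.01 ± 0.42 for KO (SD, n = 3 each, p = 0.3 by an exact permutation test, two-sided, whose smallest possible p is 0.1). For Slc7a11 minus Slc3a2 it was -1.45 ± 0.95 for WT and -1.98 ± 3.09 for KO (SD, n = 3 each, p = 1.0 by the same exact test). In KO replicate 3, where the heavy chain was highest, this second difference was -5.51, against 0.19 in KO replicate 2.
Slc7a1, the arginine and lysine carrier, was at 6.17, 6.37 and 6.69 in WT and at 6.33, 6.49 and 7.72 in KO. KO replicate 3 stood above the other libraries, which lay close together. The log2 fold change was 0.44 (95% interval -0.44 to 1.32, adjusted p = 0.999 by limma) and 0.0026 without KO replicate 3. Slc38a2, the sodium-coupled carrier of small neutral amino acids, was the most abundant member and went the other way, at 11.93, 12.24 and 11.62 in WT and at 12.20, 11.61 and 11.18 in KO. KO replicates 2 and 3 lay below all WT libraries, KO replicate 3 by the wider margin. Its log2 fold change was -0.27 (95% interval -0.91 to 0.37, adjusted p = 0.999 by limma), and -0.54 without KO replicate 1.

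**Figure D2:**
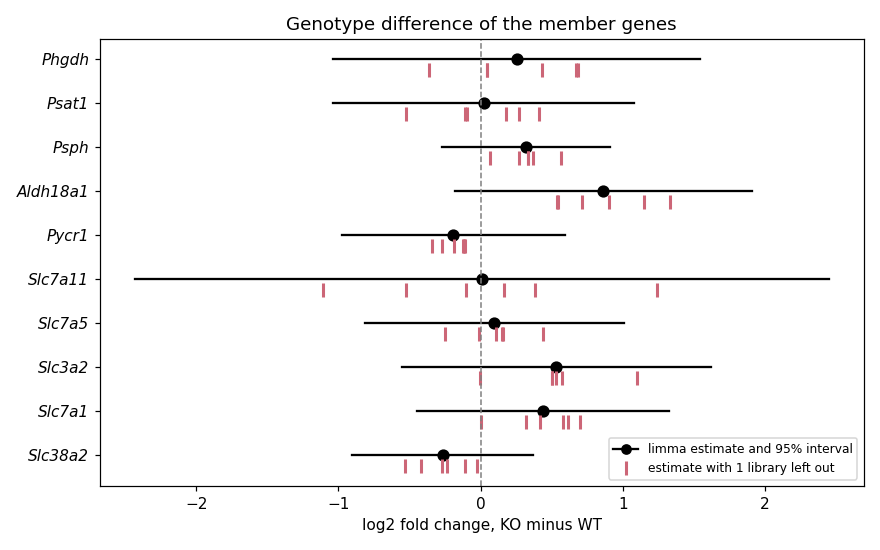
Log2 fold change of KO against WT (x axis) for each member (y axis): black points and lines are the limma estimate and its 95% interval, and red ticks below them are the estimates with 1 library left out. Every interval includes 0, and that of Slc7a11, from -2.43 to 2.45, is the widest.

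For most members the KO tumors differed more among themselves than the WT tumors did. The standard deviation was larger in KO than in WT for 8 of the 10 members, all except Psat1 and Pycr1, against 53.6% of all genes tested. This comparison was made after the values were seen and carries no test. KO replicate 3 was the highest library for 5 members (Phgdh, Aldh18a1, Slc7a5, Slc3a2 and Slc7a1) and the lowest for 3 (Pycr1, Slc7a11 and Slc38a2). Over all genes tested it was the highest library for 16.1% and the lowest for 22.4%. The median of the members' centred log2 values was 0.50 in KO replicate 3 and between -0.17 and -0.061 in the other 5 libraries. Of the cell type lists, KO replicate 3 had the highest summed level of the endothelial markers (13.1, against 12.7 to 12.9 elsewhere). All 6 of these markers had a mean log2 value above 0 over the libraries. KO replicate 3 was the lowest for the periportal list (15.4, against 15.5 to 15.8). For the other lists it was neither highest nor lowest.

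**Figure D3:**
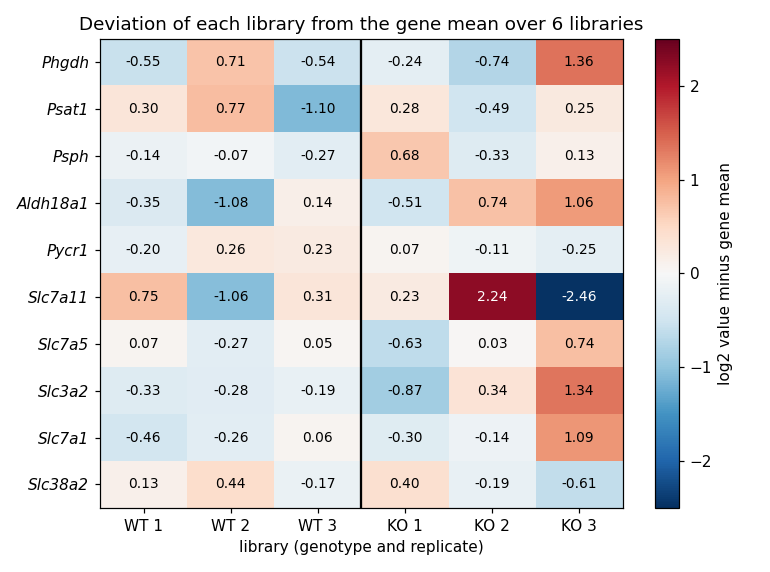
Log2 value of each member (rows) in each library (columns) minus that gene's mean over the 6 libraries; red is above and blue below the mean, and the vertical line divides WT from KO. KO replicate 3 holds the highest value of 5 members and the lowest of 3, with Slc7a11 at -2.46.

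Levels can be set against each other only per length. With the log2 of the exon length in kilobases subtracted (all annotated exons joined, GENCODE M21), the members ran from Slc38a2 at 8.65 ± 0.41 (SD, n = 6) through Slc3a2 at 7.48 ± 0.76, Phgdh at 6.48 ± 0.84, Psat1 at 6.43 ± 0.68, Psph at 5.59 ± 0.37, Aldh18a1 at 5.44 ± 0.81, Slc7a11 at 3.78 ± 1.61, Slc7a5 at 3.62 ± 0.45 and Slc7a1 at 3.10 ± 0.56 to Pycr1 at 2.82 ± 0.22 (each a mean and SD over 6 libraries). The order of neighbours held in 6 of 6 libraries for Slc3a2 above Phgdh, Psat1 above Psph, Aldh18a1 above Slc7a11 and Slc7a5 above Slc7a1, and in 5 of 6 for Slc38a2 above Slc3a2. Phgdh and Psat1 did not differ beyond their spread (2 of 6 libraries in that order), nor did Psph and Aldh18a1 (3 of 6), Slc7a11 and Slc7a5 (4 of 6) or Slc7a1 and Pycr1 (4 of 6). The length counts every annotated exon, which for Slc7a11 comes to 13.9 kilobases, so its level per length is a low estimate where shorter transcripts are made.

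How the members moved together was described over the 6 libraries for all 45 pairs. Of these, 19 correlations were positive and 26 negative. By exact permutation of the library order 8 pairs had an unadjusted p under 0.05, and 0 passed after Benjamini-Hochberg adjustment over the 45, where the smallest adjusted value was 0.0625. With 6 libraries the smallest possible p of this permutation is 0.0014, and a lone pair at that p cannot pass the adjustment. The pair with the smallest p for Pearson's r ran in opposite directions. Phgdh and Slc7a11 had Pearson's r = -0.94 (exact permutation p = 0.0014, adjusted 0.0625) and Spearman's rho = -1.0 (exact permutation p = 0.0028, adjusted 0.0625), so that the tumors ranked by one gene were in reverse order for the other. Without WT replicate 2 and KO replicate 3, the libraries farthest from the median of Phgdh, r was -0.81, and after each genotype's mean was removed it was -0.96. Aldh18a1 and Slc38a2, the pair with the largest r in size, were likewise in full reverse order (r = -0.95, exact permutation p = 0.0069, adjusted 0.156; rho = -1.0, exact permutation p = 0.0028, adjusted 0.0625), with r = -0.87 without WT replicate 2 and KO replicate 3. Slc7a5 and its heavy chain Slc3a2 had r = 0.92 (exact permutation p = 0.028, adjusted 0.208) and rho = 0.60 (exact permutation p = 0.242, adjusted 0.604). That relation rested on KO replicates 1 and 3, without which r was 0.25. For Slc7a11 and the same heavy chain r was -0.45 (exact permutation p = 0.364, adjusted 0.667) and rho -0.14 (exact permutation p = 0.803, adjusted 0.962). The libraries share one normalization, and 6 points do not fix any of these relations closely.

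The genes that use serine, 9 in all, had 0 members with an adjusted or unadjusted p under 0.05 by limma (0% and 4.34% of all genes tested). Of them 5 lay above WT, against 47.7% of all genes tested, and 4 below, with a median log2 fold change of 0.080. Cbs, which joins serine to homocysteine, had the smallest unadjusted p among those above WT (0.47 in log2 for KO minus WT, SE 0.26, adjusted p = 0.999 by limma), followed by Agxt (0.23). Sptlc2 (-0.21) and Sds (-0.39), serine dehydratase, led the others.
Of the 10 other genes of proline and glutamate metabolism 4 lay above WT, against 47.7% of all genes tested, and 6 below, with a median of -0.19. An adjusted p under 0.05 was reached by 0 of them, and 3 had an unadjusted p under 0.05 (4.34% of all genes tested), all lower in KO. Oat, ornithine aminotransferase, a second route to pyrroline carboxylate, was at 10.16, 9.69 and 10.65 in WT and at 8.85, 8.85 and 9.27 in KO. Its groups did not overlap (-1.18 in log2 for KO minus WT, SE 0.25, adjusted p = 0.938 by limma), in the opposite direction to Aldh18a1. Prodh, proline dehydrogenase, which begins the breakdown of proline, was at 9.88, 8.82 and 9.93 in WT and at 8.09, 8.92 and 8.88 in KO (-0.92 in log2 for KO minus WT, SE 0.34, adjusted p = 0.999 by limma), and WT replicate 2 lay among the KO values. The third was Glul, glutamine synthetase (-0.77 in log2 for KO minus WT, SE 0.32, adjusted p = 0.999 by limma), which was named after its value was seen. Above WT was Aldh4a1 (0.11), which takes part in the breakdown of proline. The pericentral list, which holds Oat, Glul and the glutamate carrier Slc1a2, had 7 of its 7 measured genes below WT, while 47.7% of all genes tested lay above WT. Of the 7, 4 had an unadjusted p under 0.05 by limma (4.34% of all genes tested). Among these 4 were Oat (limma's unadjusted p = 0.0015), Glul (0.042) and Slc1a2 (0.0033) themselves. The list's counts are therefore not separate from the values of these genes. The list's summed levels were 14.1 to 15.1 in WT and 13.1 to 14.2 in KO. The part of zonation in Oat and Glul was not tested.

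Of 29 other amino acid transporter genes, 11 lay above WT, against 47.7% of all genes tested, and 18 below, with a median of -0.089. An adjusted p under 0.05 by limma was reached by 0 of them. An unadjusted p under 0.05 was reached by 1 in each direction (4.34% of all genes tested, both directions together). Slc1a4, a carrier of alanine, serine and cysteine, was at 8.16, 7.98 and 9.01 in WT and at 9.47, 9.20 and 9.21 in KO, without overlap (0.91 in log2 for KO minus WT, SE 0.26, adjusted p = 0.999 by limma). Slc1a2, a glutamate carrier of pericentral hepatocytes, was at 8.89, 8.84 and 9.56 in WT and at 7.68, 5.56 and 7.49 in KO, without overlap (-2.19 in log2 for KO minus WT, SE 0.53, adjusted p = 0.968 by limma). Next in each direction came Slc6a9, a glycine carrier (0.23), and Slc7a9 (-1.31), whose values lay near the bottom of the scale.

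**Figure D4:**
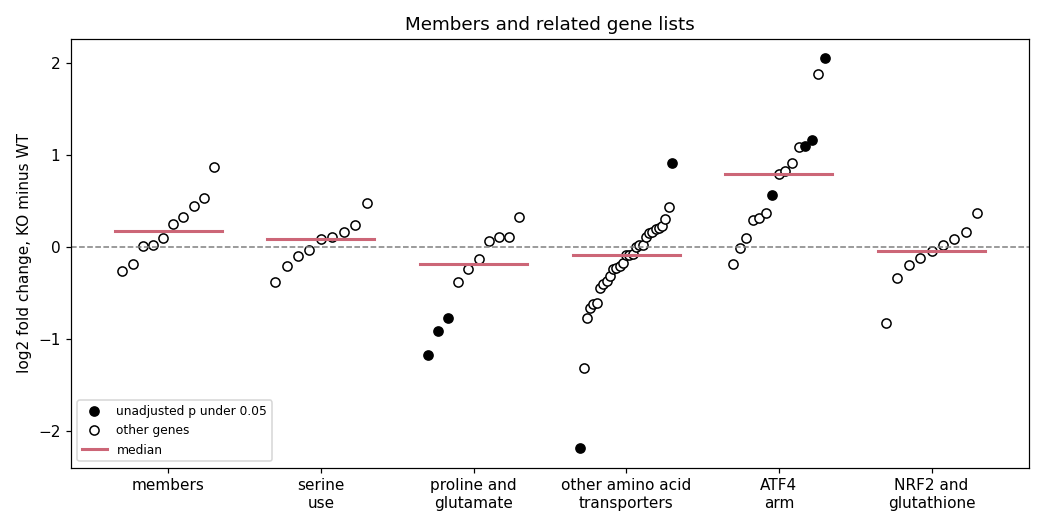
Log2 fold change of KO against WT (y axis) for the members and 5 related gene lists (x axis); each point is a gene, filled where limma's unadjusted p was under 0.05, and the red line is the list's median. The members have no filled point and a median of 0.17, and the ATF4 list has 4 filled points and a median of 0.79.

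The ATF4 pathway genes were read beside the members, since most members are known targets of that factor. The list held 15 genes, the kinases that start the response, ATF4 itself and stress effectors. In KO 13 of them lay above WT and 2 below, against 47.7% above WT among all genes tested. The median log2 fold change was 0.79 and ran from 0.35 to 0.93 with 1 library left out. An unadjusted p under 0.05 was reached by 4 (4.34% of all genes tested), all higher in KO, and an adjusted p under 0.05 by 0 (limma). That these effectors lean upward was known from earlier results of these data. Asns, asparagine synthetase, was at 8.96, 8.01 and 8.72 in WT and at 9.57, 9.35 and 10.25 in KO, without overlap (1.16 in log2 for KO minus WT, SE 0.30, adjusted p = 0.987 by limma). Ddit3, a transcription factor of prolonged stress, was at 7.94, 7.73 and 7.44 in WT and at 9.13, 7.79 and 9.48 in KO, a difference of 1.10 (adjusted p = 0.999 by limma), and KO replicate 2 lay within the WT range. The 2 genes below WT were the kinases Eif2ak2 (-0.19) and Eif2ak1 (-0.016). Atf4 itself differed by 0.29 in log2 (SE 0.20, adjusted p = 0.999 by limma). Whether the members and the effectors differ in their response was not tested.

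The NRF2 and glutathione list, 9 genes, had 4 above WT, against 47.7% of all genes tested, and 5 below, with a median log2 fold change of -0.048. By limma 0 had an adjusted or unadjusted p under 0.05 (0% and 4.34% of all genes tested). Nfe2l2, which encodes NRF2, differed by -0.20 in log2 (SE 0.14, adjusted p = 0.999 by limma). Gclc, the catalytic subunit of glutathione synthesis, was 0.37 above WT and Hmox1, heme oxygenase, 0.16 above. These genes were set against Slc7a11 after the values were seen. Nqo1, the quinone reductase, was at 9.65, 7.44 and 8.63 in WT and at 8.24, 9.24 and 5.76 in KO, low in the same 2 tumors as Slc7a11. Pearson's r with Slc7a11 was 0.92 for Nqo1 (exact permutation p = 0.0125, adjusted 0.3), 0.90 for Srxn1, sulfiredoxin (exact permutation p = 0.0069, adjusted 0.238), and 0.92 for Gclm, a subunit of the enzyme that begins glutathione synthesis (exact permutation p = 0.019, adjusted 0.369). Spearman's rho was 0.94 for each of them (exact permutation p = 0.017, adjusted 0.308). Without KO replicates 2 and 3 r was 0.92, 0.96 and 0.65. The correlation with Slc7a11 was above 0 for 9 of the 9 genes of this list (median r = 0.79) and for 1 of the 15 genes of the ATF4 list (median r = -0.31). Most other members stood the other way toward the ATF4 list, with r above 0 for 13 of its 15 genes for Phgdh, Psph, Aldh18a1 and Slc3a2, for 12 for Slc7a5 and Slc7a1 and for 9 for Psat1, while Pycr1 and Slc38a2 had 3 each. With the NRF2 list the other members had r above 0 for 0 to 5 of the 9 genes. Many of the signs toward the ATF4 list rested on 2 libraries, as examples picked after the values were seen show. Without KO replicates 2 and 3, r of Slc7a11 with Fgf21 went from -0.31 to 0.87. With Atf3 it was -0.72 before and -0.79 after. Without WT replicate 1 and KO replicate 3, r of Slc7a1 with Nupr1 went from 0.89 to -0.95. With Chac1 it was 0.79 before and 0.65 after. The NRF2 list relation of largest r was that of Aldh18a1 with Hmox1 (r = 0.99, exact permutation p = 0.0028, adjusted 0.238, and rho = 1.0, exact permutation p = 0.0028, adjusted 0.308), where r was 0.97 without WT replicate 2 and KO replicate 3. Phgdh, in reverse order to Slc7a11, ran against Srxn1 (r = -0.97, exact permutation p = 0.0042, adjusted 0.238) and Nqo1 (r = -0.96, exact permutation p = 0.0042, adjusted 0.238), with rho = -0.94 for both (exact permutation p = 0.017, adjusted 0.308) and r = -0.87 and -0.71 without the same 2 libraries. In all 240 relations between a member and a gene of these lists were computed, and 0 passed after Benjamini-Hochberg adjustment. The smallest possible exact permutation p is 0.0014 here, and a lone relation at that p could not pass, so the absence of a pass says little.

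**Figure D5:**
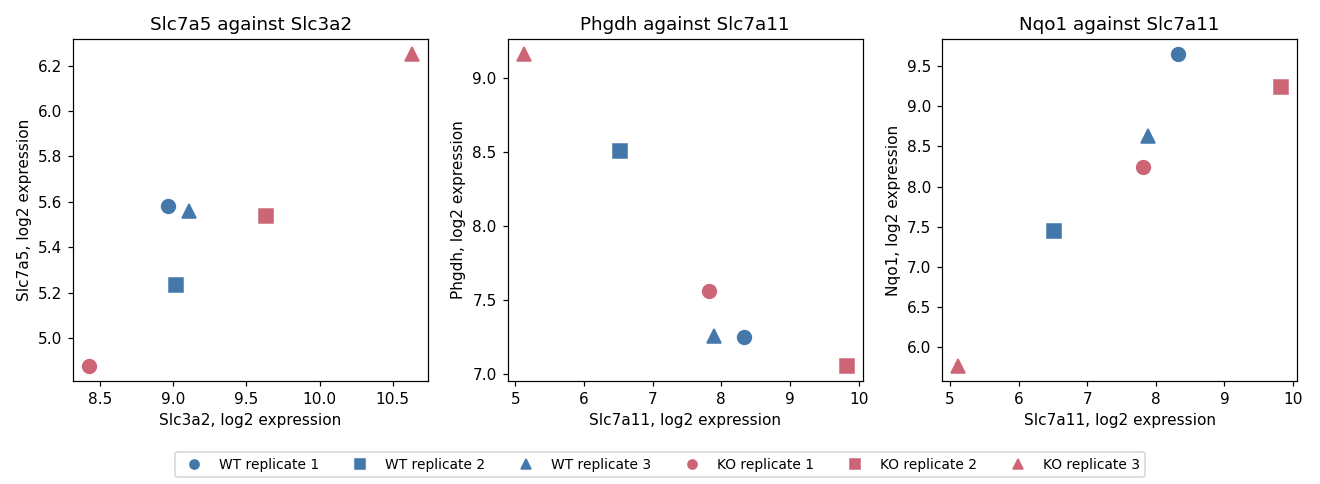
Log2 expression of pairs of genes in each of the 6 libraries (x and y axes as labelled; blue is WT, red is KO, and the symbol gives the replicate). Slc7a5 rises with Slc3a2 mainly through KO replicates 1 and 3, Phgdh runs in reverse order to Slc7a11 (rho = -1.0), and Nqo1 rises with Slc7a11 (r = 0.92).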

How the data were processed

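RNA-seq libraries of 6 mouse liver tumors were used, 3 WT and 3 KO, grouped and numbered by their titles. The deposited table gives log2 values by gene symbol, which the authors normalized between libraries, from trimmed, uniquely mapped reads counted with featureCounts; the transform is not named. The paper names BWA and a genome called Mm 8, and the submitters' processing notes name STAR 2.5.1 and GRCm38. No counts were used, so depth, counting error and floors are unknown. Unnamed columns hold a few cells of the authors' own comparison of the genotypes and were not used. Genotypes were tested by limma 3.58.1 under R 4.3.3 (lmFit, eBayes with trend, Benjamini-Hochberg) on 22677 genes, those with means outside the lowest 25%, at an adjusted p of 0.05. The procedure was tested on simulated data for 22677 genes with 200 shifted between 3 and 3 libraries: among the 200, 0 were recovered at a log2 shift of 1, 91 at 2 and 171 at 4. Labels do not say whether libraries of a genotype came from separate mice, so p-values measure the spread between these samples. Deviations of WT and KO libraries that share a number correlated at -0.123, -0.0759 and 0.0520, and the numbers were therefore not taken as pairs. Alternatives were no trend, quantile normalization, a common median, no filter, a replicate block, a stricter filter (the median), leaving out single libraries, and leaving out WT replicate 2 and KO replicate 1 together. Genes named are the members, Top1mt, Atf4, Nfe2l2, and per related list the 2 genes of smallest p in each direction; others are said to be named after their values were seen. A gene that this rule names is not reported here. The members, lists and alternatives were chosen with earlier results of these data known. Lists were written by hand. Promoters are from RefSeq, GRCm38.p6, which held 9 of the 10 members; gene lengths and overlaps are from GENCODE M21.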

Additional observations from a re-analysis of the deposited data

How the results depend on the processing

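Every alternative tried gave 0 members with an adjusted p under 0.05 by limma (smallest adjusted p of a member 0.591). With the replicate number as a block the members' median log2 fold change was 0.17, with 8 of 10 above 0, and the block changed no call. Members at an unadjusted p under 0.05 numbered 0 in the reported fit, 1 with a common median (Aldh18a1), 2 without both WT replicate 2 and KO replicate 1 (Aldh18a1 and Slc3a2) and 0 to 2 with 1 library left out, with 2 without KO replicate 1. Over all 22677 genes tested the same count was 985, 978 with a common median, 1349 without both libraries and 1356 without KO replicate 1. Members without overlap numbered 3 without both WT replicate 2 and KO replicate 1 (Aldh18a1, Slc3a2 and Slc38a2), and 0 to 3 with 1 library left out. Smaller groups stay apart more easily, so these counts cannot be set beside the 8.28% of all genes tested in the reported fit. The share over all genes was not taken for these settings. Members above 0 ran from 4 to 8 and their median from -0.014 to 0.39 with 1 library left out, both lowest without KO replicate 3. Genes called over the whole table numbered 4 with no filter and 0 to 1 with 1 library left out.

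Of the 10 members, 5 kept their direction throughout: Psph, Aldh18a1, Pycr1, Slc7a1 and Slc38a2. With 1 library left out the log2 fold change ran from -0.36 to 0.69 for Phgdh, -0.53 to 0.41 for Psat1, -1.11 to 1.24 for Slc7a11, -0.25 to 0.44 for Slc7a5, -0.0011 to 1.10 for Slc3a2, -0.74 to 0.29 for Sds, -0.10 to 0.063 for Eif2ak1, -0.057 to 0.76 for Gclc and -1.57 to 0.17 for Nqo1. The medians of the serine use list (-0.10 to 0.11) and the NRF2 list (-0.18 to 0.085) also changed sign. Slc7a11 was -0.0040 with quantile normalization and -0.64 without both libraries, Eif2ak1 0.038 with a common median and 0.082 without both libraries, Aldh4a1 -0.025 without both libraries, and the NRF2 median 0.0064 with a common median. The causes were not tested. Depth is unknown.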

Other observations

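Some values fall outside the comparisons above and were noted after the values were seen. The mean of the members' centred log2 values was matched most closely over the 6 libraries by Dok4 (Pearson's r = 0.997), followed by Tmem200b (0.989), Oser1 (0.989), Rarres1 (0.988) and Dyx1c1 (0.986). Of 22667 genes compared, 213 had r above 0.9 with that profile, which is led by KO replicates 2 and 3. In KO replicate 2 its height rested on Slc7a11, at 2.24 above that gene's mean. The members' mean there was 0.14 and their median -0.12, so a match to the profile is not a match to most members. Dyx1c1 was below 0 on the log2 scale in 4 of the 6 libraries, where such values carry little weight. No test was run on these likenesses, which rest on 6 points.

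Fgf21, a hormone that the liver releases under amino acid and mitochondrial stress, was at 6.06, 5.11 and 6.36 in WT replicates 1, 2 and 3 and at 6.31, 7.72 and 9.65 in KO. The order of the tumors for Aldh18a1 was close to that for Fgf21 (r = 0.93, exact permutation p = 0.0042, adjusted 0.238; rho = 0.94, exact permutation p = 0.017, adjusted 0.308), with r = 0.90 without WT replicate 2 and KO replicate 3. Slc38a2 ran the other way (r = -0.89, exact permutation p = 0.011, adjusted 0.296; rho = -0.94, exact permutation p = 0.017, adjusted 0.308), with r = -0.57 without the same 2 libraries. Neither relation passed after adjustment over the 240 relations computed, which a lone relation could not pass however close it was.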
